A study of Homo sapiens with 12 samples.

Results

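The genes described here changed in the same direction with acquired resistance to Regorafenib (Rego) in SNU449 cells that express Axl and in SNU449 cells that lack it. They were chosen in a fit over all 12 libraries, which set the 6 libraries of resistant cells against the 6 libraries of control cells on the log2 of the deposited library values, with Axl background and replicate number in the model. A gene was called at a Benjamini-Hochberg adjusted p under 0.05 (limma) and counted as shared when its mean difference had the same sign in both backgrounds. Of 15601 genes tested, 493 (3.16%) were called and shared, 297 as rises (1.90%) and 196 as falls (1.26%). All 493 genes called had the same sign in both backgrounds, and the model holds no interaction term, so that opposite changes enter its error. With the interaction in the model, 116 further genes were called with opposite signs.

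SNU449 is a mesenchymal-like human hepatocellular carcinoma line, and SNU449-Axl-KO is its derivative with Axl removed by CRISPR/Cas9. SNU449-ctrl and SNU449-Axl-KO-ctrl are the naive cells of each genotype. SNU449-Rego and SNU449-Axl-KO-Rego are the cells that had been taken through stepwise increases of Rego, up to a multiple of the IC50, and were given Rego again after each splitting. Adaptation over time and the presence of the drug can therefore not be told apart. Each group has 3 libraries, which the study describes as technical triplicates of 1 cell line, so that a difference between conditions rests on 2 resistant and 2 control populations and every p-value measures only the spread between libraries.

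Regorafenib blocks several receptor tyrosine kinases of blood vessels and stroma as well as RAF kinases, and is given in advanced hepatocellular carcinoma after first-line therapy has failed. Axl is a receptor of the TAM family that is activated by Gas6 and is known in carcinoma for motility, survival and tolerance to kinase inhibitors. Cells selected under such a drug can change their matrix, their secreted growth factors and their metabolism with or without Axl, and the genes below are those in which both genotypes moved the same way.

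AXL itself served as a check of the genotypes. On the log2 scale of the library values it lay between 9.48 and 10.32 in the 6 SNU449 libraries and between 5.09 and 5.78 in the 6 SNU449-Axl-KO libraries, so the genotypes did not overlap. Its change with resistance over both backgrounds was 0.35 ± 0.18 (SE, adjusted p = 0.33), an average that includes the line without Axl. In SNU449 alone the change of AXL was 0.47 ± 0.24 (SE, adjusted p = 0.27 by limma). By qPCR and Western blot, the study reported more Axl in Rego-resistant SNU449 cells than in their controls. In bulk libraries, fewer cells with a transcript and less of it per cell cannot be told apart. Library depth is unknown because the tables hold no counts per library. Of the 12 hepatocyte markers 4 were measured, and of these only FGB, a fibrinogen chain, had a mean normalized count above 5 (104). The mean log2 value of FGB was 4.75 in SNU449-ctrl, 4.85 in SNU449-Rego, 5.81 in SNU449-Axl-KO-ctrl and 8.30 in SNU449-Axl-KO-Rego. None of the 5 endothelial markers was measured, and the 2 leukocyte markers that were measured had mean normalized counts of 1.12 and 6.19.

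Over the shared genes, the median change was 0.81 for rises and −0.77 for falls, against a median of 0.00 for all genes tested, with a median standard error of 0.17. A change of at least 1 on the log2 scale was seen in 139 genes, 83 of them rises and 56 falls. Resistant and control libraries did not overlap in either background for 377 of the 493 genes, and for 815 of all genes tested (5.22%) when both backgrounds had the same direction. Since the genes were chosen by this same change, their medians and the separation of their libraries follow from the rule. Over all genes tested, 51.1% had the same sign in both backgrounds. Centring the libraries on their spike-in RNAs instead gave 521 shared genes, 426 rises and 95 falls, so that rises made up 81.8% in place of 60.2% of the genes called.

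Of the 493 genes, 93 also passed in each background on its own (0.596% of all genes tested), 59 as rises and 34 as falls, 222 passed in SNU449 only, 99 in SNU449-Axl-KO only and 79 in neither. All 93 but CLVS1 stayed under an adjusted p of 0.05 in the fit over both backgrounds whichever library was left out. The size of the change differed between the backgrounds for 61 of the 493, by the interaction term, against 918 of all genes tested (5.88%). The change was larger in SNU449 for 42 of them and larger in SNU449-Axl-KO for 19. For 28 shared genes the smaller of their changes was under 0.3. The count of 493 depended on the libraries: it was 220 without SNU449-ctrl replicate 2, 272 without SNU449-Rego replicate 3, 287 without SNU449-Rego replicate 2 and 324 without SNU449-Axl-KO-Rego replicate 1.

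**Figure D1:**
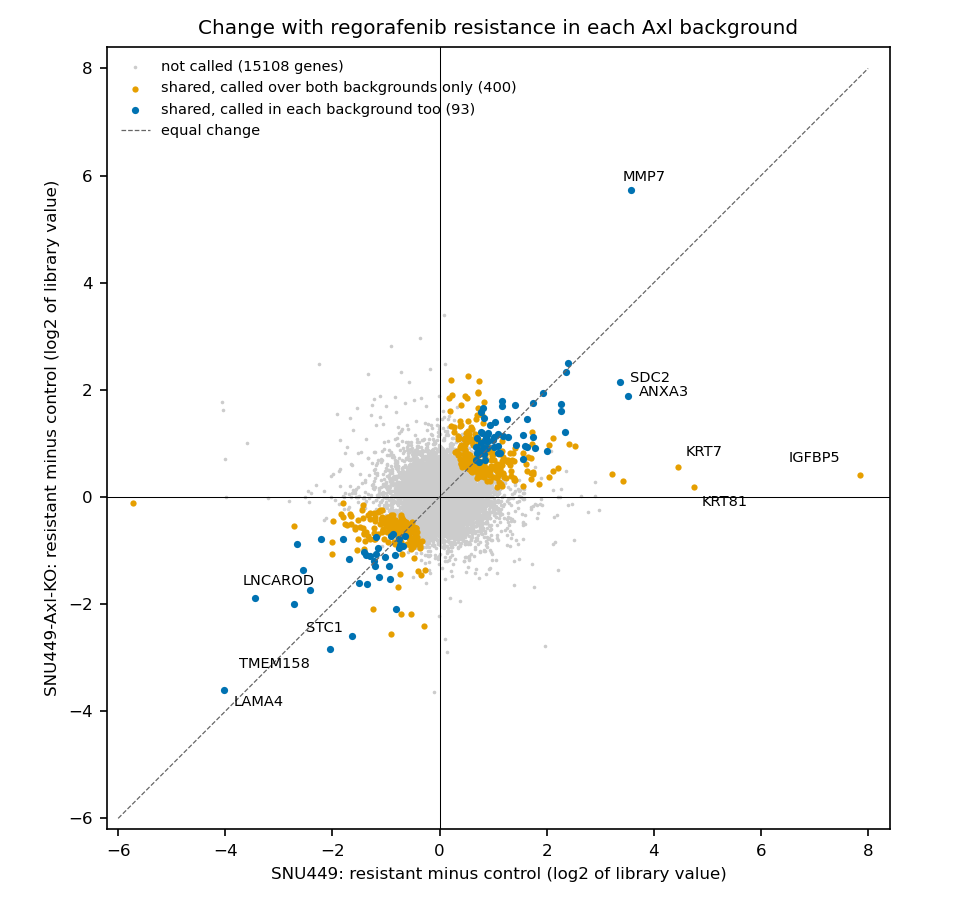
Change with Rego resistance of each gene in SNU449 (horizontal) and SNU449-Axl-KO (vertical), as resistant minus control mean on the log2 scale of the library values. LAMA4 lies near the dashed line of equal change and MMP7 above it (3.58 and 5.74), whereas IGFBP5, KRT7 and KRT81 lie along the horizontal axis with changes under 0.6 in SNU449-Axl-KO.

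Among the shared rises, MMP7 had the largest change. MMP7 encodes matrilysin, a secreted matrix metalloproteinase of epithelial and tumour cells. Its log2 library values were 5.88, 5.55 and 5.00 in SNU449-ctrl and 8.97, 8.81 and 9.41 in SNU449-Rego. In the Axl-deficient background they were 5.55, 5.49 and 6.09 in control cells and 11.28, 11.85 and 11.21 in resistant cells. All 6 control libraries thus lay at or below 6.09, and no resistant library overlapped with them. The change over both backgrounds was 4.66 ± 0.33 (SE, adjusted p = 2.4e-06). It was 3.58 in SNU449 and 5.74 in SNU449-Axl-KO, a difference of −2.15 ± 0.36 (SE, adjusted p = 0.0015). Mean normalized counts solved from the authors' means of pairs of groups went from 3.67 to 504 in SNU449 and from 38.5 to 3145 in SNU449-Axl-KO, so that the ratio was larger in SNU449 on that scale. The small control counts are poorly determined by these means, and the order of the rises in both backgrounds holds for the library values only.

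INHBB, the beta B subunit of activin B and inhibin B, had values of 5.29, 5.55 and 4.64 in SNU449-ctrl and 7.43, 7.01 and 8.11 in SNU449-Rego. In SNU449-Axl-KO it had 5.46, 6.04 and 5.43 in control and 8.10, 7.69 and 8.14 in resistant cells. On the scale of the library values, the changes of 2.36 and 2.33 differed by 0.02 ± 0.40 (SE, adjusted p = 0.99 for the difference). Its solved mean normalized counts went from 6.25 to 157 in SNU449 and from 27.1 to 251 in SNU449-Axl-KO, so that the ratios were not equal. FXYD6, a small regulator of the sodium pump, changed by 2.39 in SNU449 and 2.51 in SNU449-Axl-KO. Its control libraries lay between 4.17 and 5.83 and its resistant libraries between 6.57 and 7.86. The solved mean normalized counts of FXYD6 went from 8.49 to 171 in SNU449 and from 1.92 to 118 in SNU449-Axl-KO. Such small control counts are poorly determined, so that equal changes hold for the library values only.

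S100A4, a calcium-binding protein of motile and mesenchymal cells, changed by 1.74 and 1.76. Its values were 5.55, 5.04 and 5.70 in SNU449-ctrl against 7.13, 7.08 and 7.30 in SNU449-Rego, and 6.69, 7.22 and 6.49 in SNU449-Axl-KO-ctrl against 8.59, 8.64 and 8.44 in SNU449-Axl-KO-Rego. S100A4 was higher without Axl both before and after resistance. Its solved mean normalized counts went from 12.4 to 111 in SNU449 and from 97.9 to 391 in SNU449-Axl-KO, so that equal changes of the library values, which are compressed at low counts, were not equal ratios of counts. SDC2, the heparan sulfate proteoglycan syndecan-2, changed by 3.36 in SNU449 and 2.14 in SNU449-Axl-KO and reached nearly the same level in both resistant lines, with means of 8.35 and 8.47. Its difference between backgrounds of 1.22 ± 0.37 (SE) had an adjusted p of 0.063.

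ANXA3, a calcium-dependent phospholipid-binding annexin, had the same pattern as SDC2, from means of 4.84 and 6.33 in the controls to 8.36 and 8.21 in the resistant lines. Its larger change in SNU449 passed the interaction test (1.65 ± 0.45, SE, adjusted p = 0.037). The other leading rises were TFAP2B (1.93), which encodes an AP-2 transcription factor, the microtubule-associated MTUS1 (2.00), the membrane carboxypeptidase CPM (1.93) and periplakin, PPL (1.54), a linker of desmosomes and keratin filaments. None of these 4 had an adjusted p under 0.05 for a difference between backgrounds, with standard errors of that difference between 0.38 and 0.50.

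LAMA4, the laminin alpha 4 chain of vascular and mesenchymal basement membranes, had the largest shared fall and the smallest p of all shared genes. Its log2 values were 8.68, 8.92 and 9.38 in SNU449-ctrl and 5.29, 5.13 and 4.46 in SNU449-Rego. They were 8.37, 8.38 and 8.28 in SNU449-Axl-KO-ctrl and 4.70, 4.64 and 4.91 in SNU449-Axl-KO-Rego. Control and resistant libraries lay more than 3 log2 units apart in each background. LAMA4 fell by 3.81 (SE 0.18, adjusted p = 8.9e-09), with changes of −4.03 in SNU449 and −3.59 in SNU449-Axl-KO. Its solved mean normalized counts went from 499 to 0.0 in SNU449 and from 320 to 7.23 in SNU449-Axl-KO. Since the library values are compressed at low counts, the sizes of these falls hold for the library values only.

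TMEM158, a membrane protein known to rise upon Ras activation, fell by 2.44, from between 7.82 and 8.88 in the 6 control libraries to between 5.39 and 7.07 in the 6 resistant libraries. WNT5A, a ligand of non-canonical Wnt signaling, had values of 9.08, 8.74 and 9.56 in SNU449-ctrl against 6.88, 7.02 and 6.21 in SNU449-Rego. In SNU449-Axl-KO it had 8.89, 8.54 and 8.62 in control cells against 6.61, 7.17 and 7.08 in resistant cells. WNT5A thus fell by 2.08 over both backgrounds (SE 0.20, adjusted p = 5.8e-05), with resistant means of 6.70 and 6.95. Its solved mean normalized counts went from 569 to 43.6 in SNU449 and from 426 to 137 in SNU449-Axl-KO. On that scale neither the end levels nor the ratios were equal.

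DKK1, a secreted inhibitor of canonical Wnt signaling, was the most abundant of the leading genes and had the least certain fall. Its values were 10.96, 11.13 and 12.54 in SNU449-ctrl, 10.66, 10.45 and 9.77 in SNU449-Rego, 12.19, 11.43 and 12.18 in SNU449-Axl-KO-ctrl and 9.79, 10.59 and 9.13 in SNU449-Axl-KO-Rego. It fell by 1.67 (SE 0.31, adjusted p = 0.0092) over both backgrounds, but in SNU449 on its own the change of −1.25 had an adjusted p of 0.056. LNCAROD, a long noncoding RNA annotated close to DKK1 on chromosome 10, fell by 3.44 in SNU449 and by 1.88 in SNU449-Axl-KO, a difference of −1.56 ± 0.34 (SE, adjusted p = 0.0091), from a control level that was already lower without Axl (6.89 against 8.41). Both resistant lines ended at nearly the same low library values, with means of 4.97 and 5.01. The library values are compressed at low counts, which limits the size of both falls and their difference. Solved mean normalized counts of LNCAROD went from 328 to 0.0 in SNU449 and from 98.0 to 9.92 in SNU449-Axl-KO.

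Channel subunits, a secreted glycoprotein and an enzyme were also among the leading falls. CACNA2D3, an auxiliary calcium channel subunit, fell by 2.36, and CACNA1A, the pore-forming subunit of P/Q-type calcium channels, fell by 1.56. STC1, a secreted glycoprotein of calcium and phosphate handling, fell by 2.11, and B3GALT5, a galactosyltransferase, by 1.95. B3GALT5 fell by 2.54 in SNU449 and by 1.36 in SNU449-Axl-KO (adjusted p = 0.051 for the difference), to means of 5.65 and 6.67. Its solved mean normalized counts went from 274 to 0.37 in SNU449 and from 258 to 103 in SNU449-Axl-KO. So small a resistant count is poorly determined. For each leading gene given here, resistant and control libraries did not overlap in either background, which the rule for naming them required.

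**Figure D2:**
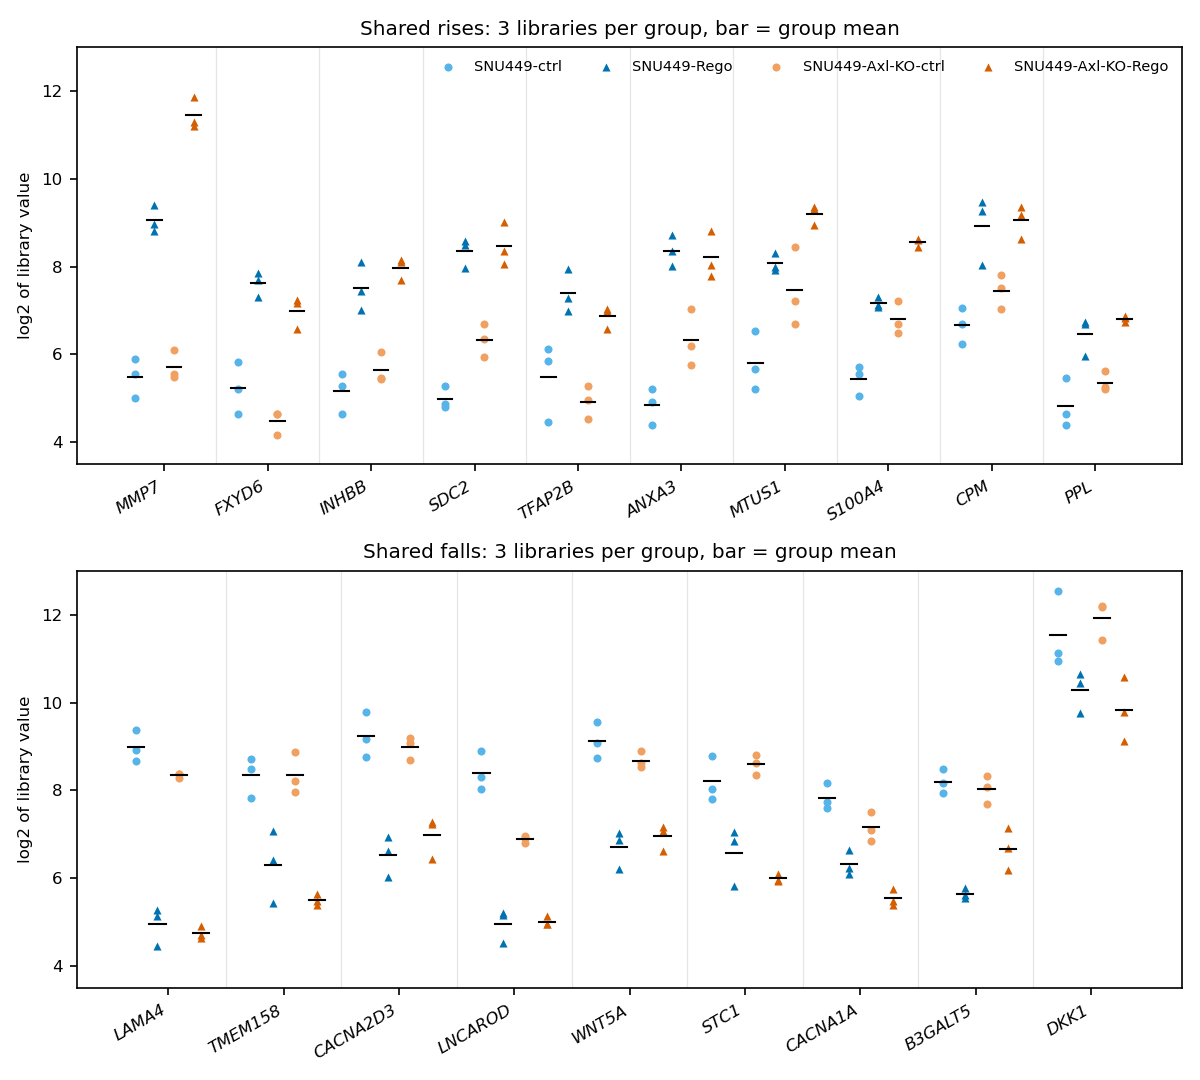
Log2 library values of the leading shared rises (upper) and the leading shared falls described in the text (lower), with 3 libraries per group as points and the group mean as a bar. In every gene the triangles of the resistant lines lie beyond the circles of their own controls, and MMP7 and LAMA4 show the widest gaps.

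Sequence upstream of the start site is shown for the first 2 rises and the first 2 falls, since these genes lead the shared response in both lines. The bases are those before the start that RefSeq gives for the gene (GRCh38.p14, the first listed start for FXYD6), read in the direction of the gene and trimmed to the longest stretch that no annotated exon covers. Capitals mark matches to the 8 motifs searched on both strands. MMP7 (chr11:102530751-102530997, minus strand) holds TGANTCA, the AP-1 motif, at 67 to 61 bases before the start, a TATAAA box at 30 to 25 bases and CCAAT at 162 to 158 bases. FXYD6 (chr11:117877487-117877680, minus strand) holds CACGTG at 94 to 89 bases and CCAAT at 160 to 156 bases. LAMA4 (chr6:112254723-112254785, minus strand) and TMEM158 (chr3:45226288-45226537, minus strand) hold none of the 8 in the stretch shown.
MMP7: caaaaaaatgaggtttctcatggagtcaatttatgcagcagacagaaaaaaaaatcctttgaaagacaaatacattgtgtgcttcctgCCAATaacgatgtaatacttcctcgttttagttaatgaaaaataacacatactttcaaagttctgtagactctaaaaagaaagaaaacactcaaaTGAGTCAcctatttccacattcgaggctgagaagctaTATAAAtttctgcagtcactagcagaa
FXYD6: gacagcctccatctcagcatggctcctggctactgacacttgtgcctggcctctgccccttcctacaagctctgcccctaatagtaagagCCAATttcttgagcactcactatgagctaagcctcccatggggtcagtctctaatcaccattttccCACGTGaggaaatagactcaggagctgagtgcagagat
LAMA4: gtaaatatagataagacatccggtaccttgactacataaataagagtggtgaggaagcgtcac
TMEM158: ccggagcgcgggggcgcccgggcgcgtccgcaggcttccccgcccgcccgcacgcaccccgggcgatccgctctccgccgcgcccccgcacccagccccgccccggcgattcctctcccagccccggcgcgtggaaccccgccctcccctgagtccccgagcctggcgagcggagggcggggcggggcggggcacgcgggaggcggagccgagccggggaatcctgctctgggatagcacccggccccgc

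In the 250 bases before the start, TGANTCA was found for 3.70% of the shared rises, 6.12% of the shared falls and 3.86% of all genes tested with an entry. CATTCC was found for 10.2%, 12.9% and 9.59%, TATAAA for 8.80%, 7.48% and 5.56%, and TGACNNNGC for 12.0%, 8.16% and 12.2%. TCACNCCAC was found for 0.463%, 2.72% and 0.778%, the interferon-stimulated response element for 1.85%, 4.76% and 2.30%, CACGTG for 6.94%, 9.52% and 8.78%, and CCAAT for 32.9%, 37.4% and 35.4%. An entry existed for 216 of the 297 rises, 147 of the 196 falls and 10802 of all genes tested, no motif contains another, and these shares are descriptions.

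Some genes of related function moved in opposite directions, and the integrin, collagen and follistatin genes given next were chosen after their values were seen, among the 93 called in each background. FST, the secreted antagonist follistatin that binds activins, fell by 1.22 (SE 0.19, adjusted p = 0.0025) where INHBB rose. ITGA6, a laminin-binding integrin chain, rose by 0.77 (SE 0.14, adjusted p = 0.0073), with values between 7.48 and 8.18 in the control and between 8.49 and 8.74 in the resistant libraries.

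Other integrin chains differed in direction. ITGB3, a chain of the vitronectin receptor, fell by 1.43 (SE 0.18, adjusted p = 0.00054), from means of 7.72 and 7.26 in the control lines to 6.03 and 6.10 in the resistant lines. ITGA5, a chain of the fibronectin receptor, fell by 1.45 (SE 0.21, adjusted p = 0.0020), with changes of −0.81 in SNU449 and −2.09 in SNU449-Axl-KO and an adjusted p of 0.0096 for the difference. Of the collagens, COL18A1 rose by 1.19 (SE 0.20, adjusted p = 0.0049) and COL13A1 fell by 1.31 (SE 0.20, adjusted p = 0.0025).

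In the list of 22 measured extracellular matrix genes, 1 rose and 2 fell in both backgrounds, where 1.90% of all genes tested were shared rises and 1.26% shared falls. LAMA5, a laminin chain of epithelial basement membranes, rose by 1.35 (SE 0.21, adjusted p = 0.0025), from between 6.07 and 7.40 in the control libraries to between 7.75 and 8.42 in the resistant libraries. LAMA4 fell as described, and P4HA1, a prolyl hydroxylase of collagen, fell by 0.75 (adjusted p = 0.030). The median change of the list was −0.17, and 6 of its genes differed between backgrounds in their change, where 5.88% of all genes tested did. COL1A1, 1 of the 6, changed by 1.96 in SNU449 and −2.79 in SNU449-Axl-KO.

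Of 22 measured glycolytic and hypoxia-responsive genes, 5 fell and 0 rose (22.7% called, median change −0.24), where 1.26% of all genes tested were shared falls. The number called was 1 without SNU449-ctrl replicate 2 and at most 6 without another library. LDHA, lactate dehydrogenase A, fell by 0.92 (SE 0.20, adjusted p = 0.020), with values of 12.09, 12.43 and 13.02 in SNU449-ctrl, 11.58, 11.57 and 10.91 in SNU449-Rego, 11.99, 12.17 and 12.28 in SNU449-Axl-KO-ctrl and 11.80, 11.31 and 11.26 in SNU449-Axl-KO-Rego. The change of LDHA was −1.16 in SNU449 (adjusted p = 0.0066) and −0.69 in SNU449-Axl-KO (adjusted p = 0.13). HK1, a hexokinase, fell by 0.82 (SE 0.13, adjusted p = 0.0025) and was the only member called in each background. On its own SNU449 had 6 members called and SNU449-Axl-KO 1, with list medians of −0.465 and −0.195. BNIP3, a mitophagy receptor and HIF target, fell by 0.84 (adjusted p = 0.038) over both backgrounds, but its changes were −1.44 in SNU449 and −0.24 in SNU449-Axl-KO, with an adjusted p of 0.013 for the difference. PFKFB4 fell by 0.64 and PKM, pyruvate kinase, by 0.59.

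Members not called included PGK1 (−0.78, adjusted p = 0.11), TPI1 (−0.63, adjusted p = 0.14), GAPDH (−0.46, adjusted p = 0.18) and HK2 (0.44, adjusted p = 0.053). The hypoxia markers ADM and VEGFA were at 0.14 and −0.11. At an unadjusted p under 0.05 there were 11 members, against 2692 of the 15601 genes tested. Lower in both backgrounds were 13 of the 22, against 27.1% of all genes with a mean normalized count of at least 20. With centring on the spike-ins the list had 3 shared falls, and BNIP3 did not pass (adjusted p = 0.063).

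Few cell cycle genes passed. Of 29 measured genes of replication and mitosis, 22 were lower in both backgrounds and 1 higher, with a median change of −0.44. Among all genes with a mean normalized count of at least 20, 27.1% were lower and 24.9% higher in both. Where 1.26% of all genes tested were shared falls, 3 of the list fell (10.3%). These were CCNB1, cyclin B1 (−0.65 ± 0.16, SE, adjusted p = 0.040), and the spindle checkpoint kinases BUB1B (−0.64 ± 0.16, SE, adjusted p = 0.038) and BUB1 (−0.60 ± 0.14, SE, adjusted p = 0.032). CCNB1 lay between 9.95 and 10.35 in the 6 control libraries and between 9.09 and 9.86 in the 6 resistant libraries. AURKA (−0.57, adjusted p = 0.051), MCM6 (−0.57, adjusted p = 0.079) and MKI67 (−0.50, adjusted p = 0.25) did not pass, and TOP2A was at 0.03. None of the 3 calls held with centring on the spike-ins, where their changes were between −0.56 and −0.50, and each was lost without some libraries (CCNB1 in 10 of 12 omissions, BUB1B and BUB1 in 9).

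**Figure D3:**
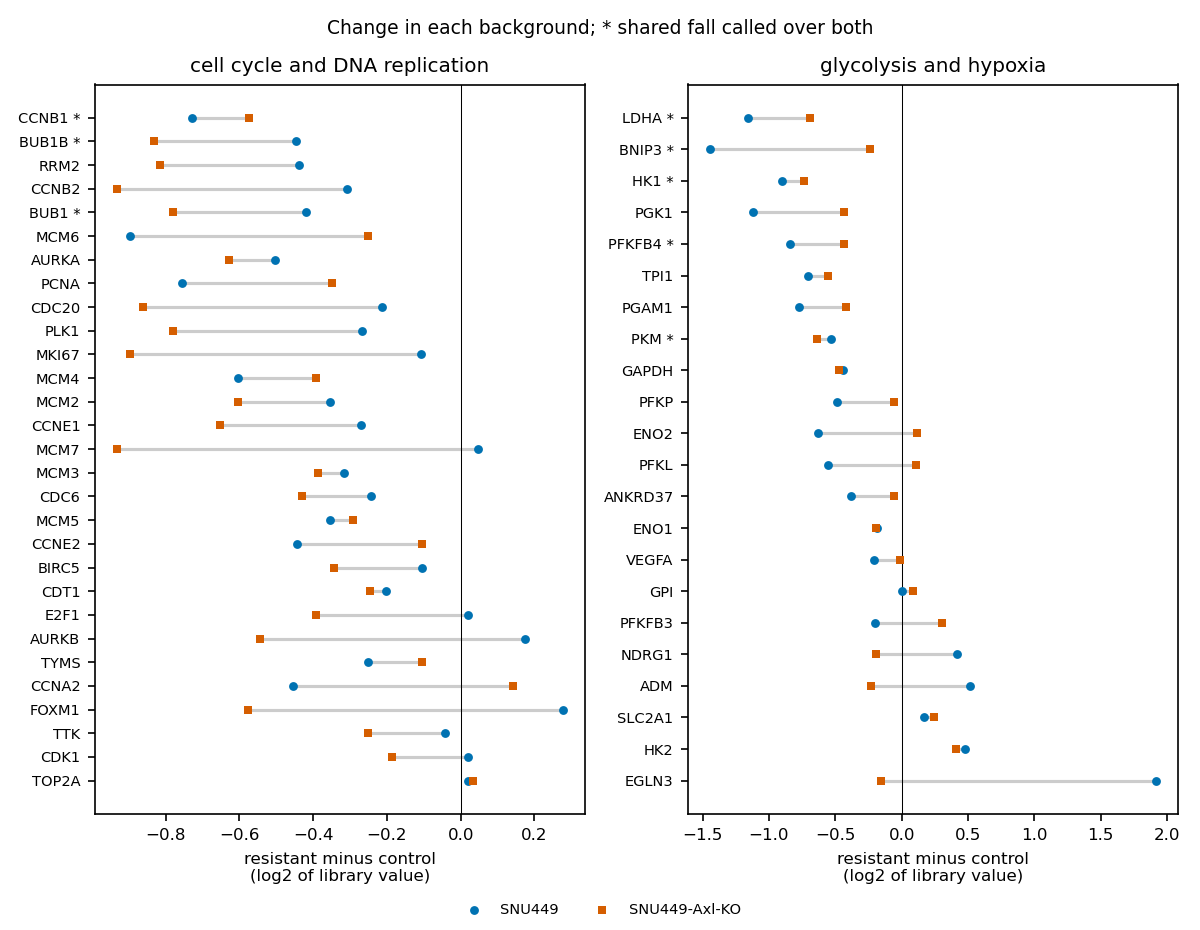
Change with resistance of every measured member of the cell cycle list (left) and the glycolysis and hypoxia list (right), with SNU449 as circles and SNU449-Axl-KO as squares on the log2 scale of the library values. Asterisks mark the 3 and 5 genes called over both backgrounds, and most members of the cell cycle list lie left of 0 in both lines.

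Shared rises in the lists included genes of drug handling and a chemokine. ABCC3, an efflux transporter of conjugated organic anions, rose by 0.98 (SE 0.18, adjusted p = 0.0078), with values between 7.85 and 8.56 in the control libraries and between 8.85 and 9.86 in the resistant libraries. CYP3A5, a cytochrome P450 that oxidizes many drugs, rose by 0.98 (SE 0.18, adjusted p = 0.0085), with changes of 0.54 in SNU449 and 1.42 in SNU449-Axl-KO. The multidrug transporter ABCB1 was at 1.20 and 0.40 (adjusted p = 0.092 over both). Of the 17 measured members of the list, 2 rose, 0 fell and 7 were higher in both backgrounds. Over all genes tested 1.90% were shared rises, and 24.9% of those with a mean normalized count of at least 20 were higher in both.

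CCL2, a monocyte-attracting chemokine, rose by 1.35 (SE 0.28, adjusted p = 0.018) and was the only one of 17 NF-kB targets called. Its libraries overlapped in SNU449, where 1 control value of 7.40 lay above the lowest resistant value of 7.33. In SNU449-Axl-KO the means were 5.89 in control and 7.34 in resistant cells, without overlap. OASL was the only one of 21 interferon-stimulated genes called (0.67, adjusted p = 0.030) at a mean normalized count of 7.17, and TAPBP, which loads peptides onto HLA class I, the only one of 12 antigen presentation genes (0.54, adjusted p = 0.042). OASL did not pass in 8 and TAPBP in 10 of the 12 fits that left out a library. The single calls made up 5.88% of the NF-kB list, 4.76% of the interferon list and 8.33% of the antigen presentation list. Over all genes tested 3.16% were called.

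The IGF-binding proteins, which carry IGFs and limit their access to receptors, had 4 of 7 members called, 3 rises and 1 fall, where 3.16% of all genes tested were called. Without SNU449-ctrl replicate 2, limma called 0 of the 7. IGFBP7 rose by 0.83 (adjusted p = 0.026) and IGFBP2 by 0.60 (adjusted p = 0.023), whereas IGFBP1 fell by 1.19 (adjusted p = 0.038). IGFBP5 counted as shared only by its sign, since its change was 7.85 in SNU449 and 0.42 in SNU449-Axl-KO (adjusted p = 0.53 in the latter). The keratins KRT7 (4.45 and 0.56) and KRT81 (4.74 and 0.19) also counted as shared only by their sign, but their levels differed from those of IGFBP5. They were already high in SNU449-Axl-KO-ctrl, with means of 8.48 and 10.06 against 4.80 and 5.33 in SNU449-ctrl. IGFBP5 stayed low without Axl, with means of 4.62 in control and 5.03 in resistant cells. KRT7 and KRT81 were the only called members of 11 epithelial genes, of which 8 were higher in both backgrounds with a median change of 0.61. Shared rises made up 1.90% of all genes tested. Of all genes with a mean normalized count of at least 20, 24.9% were higher in both backgrounds.

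Of 13 mesenchymal genes, S100A4 rose as described and ZEB2, a repressor of E-cadherin, fell by 0.86 (SE 0.18, adjusted p = 0.019), with changes of −1.31 in SNU449 and −0.42 in SNU449-Axl-KO. FN1, fibronectin, was at −2.24 in SNU449 and 2.48 in SNU449-Axl-KO and was not a shared gene. VIM and TWIST1 were at −0.08 and −0.02 over both backgrounds. ID2, a target of BMP signaling, was the only one of 15 TGF-beta and BMP genes called, and fell by 1.08 (adjusted p = 0.020). Called members made up 15.4% of the mesenchymal list and 6.67% of the TGF-beta and BMP list, where 3.16% of all genes tested were called.

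The p53 list had 1 rise and 1 fall among 15 genes. GADD45A, a growth arrest and DNA damage gene, rose by 0.98 (adjusted p = 0.044), and the death receptor FAS fell by 0.61 (adjusted p = 0.031, and 0.12 with centring on the spike-ins), while CDKN1A was at −0.45 (adjusted p = 0.27). ACLY, the ATP citrate lyase that feeds fatty acid synthesis, fell by 0.73 (adjusted p = 0.011) and was the only one of 10 genes of that pathway called. PSPH, the last enzyme of serine synthesis, rose by 0.77 (adjusted p = 0.030) and was the only one of 19 genes of the ATF4 and unfolded protein responses called. Called members made up 13.3% of the p53 list, 10.0% of the fatty acid list and 5.26% of the ATF4 list. Over all genes tested 3.16% were called, and the shares of these short lists rest on 1 or 2 genes.

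Several pathways had no shared call by limma at an adjusted p under 0.05. Over all 15601 genes tested 3.16% were called, and 0 calls in lists of this size lie near that share. An unadjusted p under 0.05 was found for 2692 of all genes tested, and 942 were shared genes with the interaction in the model. Among the 7 measured kinases targeted by Rego there were 0 calls, 0 at an unadjusted p under 0.05 and 0 with the interaction in the model. There were 0 calls among 23 other receptor tyrosine kinases and ligands (8 at an unadjusted p under 0.05, 3 with the interaction in the model), 19 genes of MAPK output (7 and 3), 22 of cholesterol synthesis (5 and 0), 13 YAP and TEAD targets (3 and 2), 18 of the lysosome (3 and 1), 17 NRF2 targets (2 and 2) and 13 mitochondrially encoded transcripts (0 and 0). Of the 17 NRF2 targets, 9 passed the interaction test and 3 had the same sign in both backgrounds, against 5.88% and 51.1% of all genes tested. AKR1B10 had the largest change among them, with 0.08 in SNU449 and 3.40 in SNU449-Axl-KO.

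**Figure D4:**
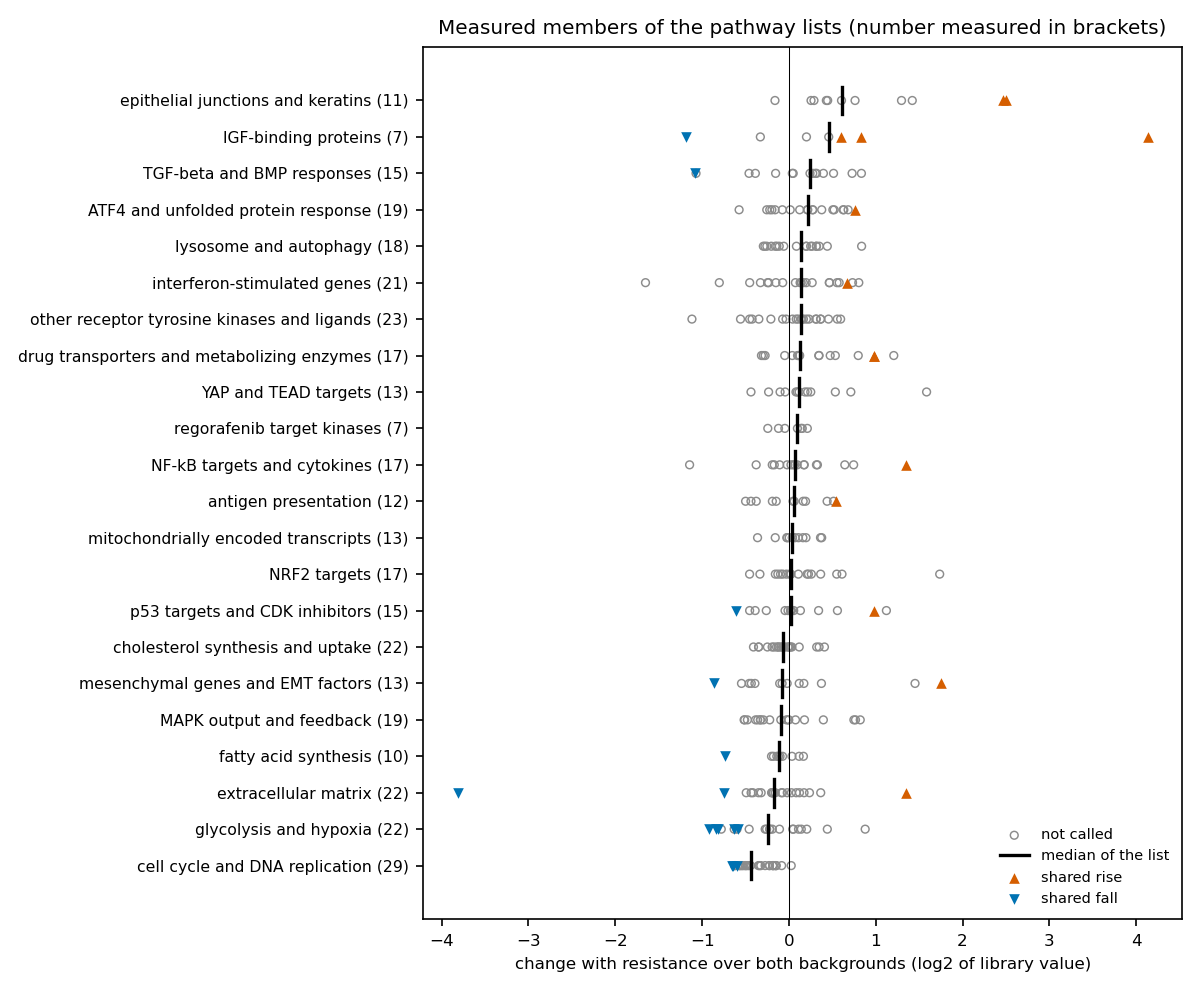
Change over both backgrounds of every measured member of the 22 pathway lists, on the log2 scale of the library values, with the list median as a vertical bar. Filled triangles are the shared rises and falls called, and the cell cycle list has the lowest median (−0.44) and the epithelial list the highest (0.61).

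The shared genes were more often protein coding than all genes tested, with 92.9% of the rises and 93.9% of the falls against 79.1%. Long noncoding RNAs made up 5.05% and 5.61% against 14.4%. Their median mean normalized count was 81.6 for rises and 117 for falls against 57.1, and genes with a mean normalized count under 20 made up 18.5% and 15.8% against 33.5%.

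Shared falls were unevenly spread over the chromosomes, a description made after the values were seen and without a test. Chromosome 15 held 12.2% of the shared falls and 3.17% of the genes tested, and chromosome 10 held 11.2% and 4.19%. Over the 317 genes of chromosome 15 with a mean normalized count of at least 20, the median change was −0.18 in SNU449 and −0.24 in SNU449-Axl-KO, and 56.5% were lower in both backgrounds, against 27.1% over all chromosomes. In SNU449 the libraries differed mainly in replicate 3, with median deviations of 0.239 in control and −0.193 in resistant cells, against 0.015 and −0.018 in replicate 1 and 0.030 and −0.032 in replicate 2. Among these genes 22 fell and 4 rose. The falls were spread along the chromosome from NOP10 (−0.65), MEIS2 (−0.64) and BUB1B to DUT (−0.81), PKM, MFGE8 (−0.81) and FURIN (−0.64), and MGA had the largest (−1.36). The change of MGA was −0.30 in SNU449 and −2.42 in SNU449-Axl-KO (adjusted p = 0.00089 for the difference), and that of MFGE8 −0.27 and −1.36 (adjusted p = 0.023).

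On chromosome 10 the median change was −0.12 in each background over 442 genes, with 21 falls and 4 rises. From position 45000000 on, 49.8% of 325 genes were lower in both backgrounds, and the falls there included DKK1, LNCAROD, SRGN (−1.22), HK1, P4HA1, KCNMA1 (−1.21), FAS and BNIP3. HK1, BNIP3 and PKM of the glycolysis list, BUB1B of the cell cycle list, FAS of the p53 list and P4HA1 of the matrix list lie on chromosome 15 or in this stretch of chromosome 10, and the part of these regional shifts in their falls was not tested. Before position 45000000, the 117 genes of chromosome 10 had a median change of 0.04. Chromosome X also had medians below 0, −0.087 in SNU449 and −0.136 in SNU449-Axl-KO, with 7 falls and 7 rises. Chromosome 19 had opposite medians, 0.41 in SNU449 and −0.22 in SNU449-Axl-KO.

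**Figure D5:**
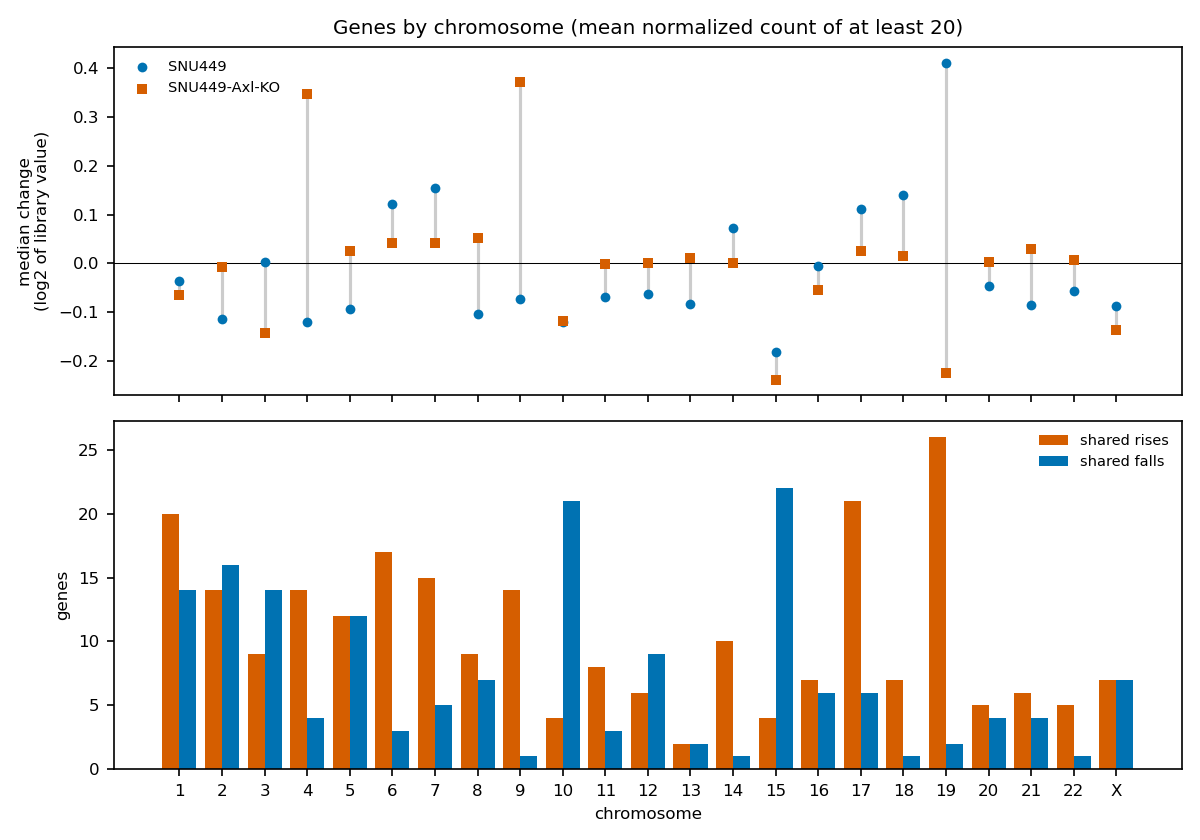
Median change with resistance per chromosome in each background (upper, log2 of the library values) and number of shared rises and falls per chromosome (lower), for genes with a mean normalized count of at least 20. Chromosomes 10 and 15 hold the most shared falls, 21 and 22, and have medians below 0 in both lines, as have chromosomes 1, 2, 11, 16 and X. Chromosomes 4, 9 and 19 are among those with medians of opposite sign.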

How the data were processed

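The authors prepared QuantSeq 3′ mRNA libraries from 4 SNU449 lines with 3 libraries each, trimmed reads with cutadapt 4.0, aligned them with STAR 2.5.3a to GRCh38 plus spike-in sequences and ran DESeq2 with preparation date in the design. Of the 8 tables, the one that sets all 6 control against all 6 resistant libraries was used. Its library values are scores and not counts: the authors applied a variance-stabilizing transformation and took out preparation date. The deposited whole numbers, the smallest being 13, were read as these levels returned to a linear scale and rounded, which the sources used here do not state. The mean normalized count is a signal averaged by the authors over libraries. The deposited fold changes and p-values hold the authors' own comparisons and were not used. Preparation dates per library are not given in the sources used here, and depth per library is unknown.

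The log2 of the values, without a pseudocount, entered linear models in limma (version 3.58.1, under R 4.3.3), moderated with a mean-dependent prior, on resistance, Axl background and replicate number (7 residual degrees of freedom). Since a preparation effect had already been taken out of the values, p-values are approximate. A second model with the 4 groups and replicate number gave changes per background, their difference (interaction) and the Axl contrast. The 32 spike-in entries were left out, and p-values were adjusted by Benjamini-Hochberg over 15601 genes. Group means of normalized counts were solved by non-negative least squares from the authors' means in the 6 tables of pairs of groups. Named were AXL, the 10 rises and 10 falls with the largest smaller-of-both change among called genes without overlap of libraries in either background, and up to 3 called members of each of 22 pathway lists. PFKFB4, PKM, IGFBP2, the list members that did not pass and the genes given by chromosome fall outside this rule and were chosen after their values were seen. A gene among the named falls is not reported here. Members and lists were chosen with earlier results of these data known. The models were also run on simulated data, whose outcome is not given here. Alternatives were no replicate block, the interaction in the model, upper-quartile and spike-in scaling, pseudocounts of 1 and 10, a mean normalized count of at least 20, no trend, the other table over all libraries and omission of each library.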

Additional observations from a re-analysis of the deposited data

Results flagged for a closer look

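Among the named genes, 7 changed with resistance by a different amount in each background (interaction term of limma, adjusted over all genes), given as the change in SNU449 minus that in SNU449-Axl-KO. The difference was −2.15 ± 0.36 (SE) for MMP7 (adjusted p = 0.0015), which rose more without Axl on the log2 scale of the library values. The ratio of its solved mean normalized counts was larger with Axl, from poorly determined control counts. LNCAROD, at −1.56 ± 0.34 (SE, adjusted p = 0.0091), and BNIP3, at −1.20 ± 0.27 (SE, adjusted p = 0.013), had the larger fall with Axl, and the change of BNIP3 without Axl was −0.24. LNCAROD ended at nearly the same low library values in both resistant lines, with means of 4.97 and 5.01, from control means of 8.41 with and 6.89 without Axl. Compression of the library values at low counts limits this difference. ANXA3, at 1.65 ± 0.45 (SE, adjusted p = 0.037), rose more with Axl. The difference was 3.88 ± 0.61 (SE, adjusted p = 0.00086) for KRT7, 4.56 ± 0.51 (SE, adjusted p = 3.8e-05) for KRT81 and 7.43 ± 0.45 (SE, adjusted p = 1.1e-08) for IGFBP5. These genes rose in SNU449, and their changes in SNU449-Axl-KO were 0.56, 0.19 and 0.42. KRT7 and KRT81 were already high in SNU449-Axl-KO-ctrl, with means of 8.48 and 10.06, near the 9.24 and 10.07 of SNU449-Rego. IGFBP5 was low there, with a mean of 4.62. With 3 libraries per group, no library was examined as an outlier.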

How the results depend on the processing

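Same-numbered libraries deviated in opposite directions from their group means (correlations between −0.48 and −0.09). Removal of an effect tied to the numbers would give this either way, so the check cannot tell whether a replicate block is due. Without the replicate block the counts were 1101 shared genes (626 rises, 475 falls), 234 called in each background, 167 with an interaction and 52 list members, against 493 (297 and 196), 93, 61 and 29. With the interaction in the model they were 942 (552 and 390), 125 with an interaction and 60 list members, and both held all 493 genes. Centring on spike-ins, whose mean was lower by 0.09 in resistant libraries, gave 95 falls. Leaving out 1 library gave 220 to 465 shared genes, 136 to 290 rises, 84 to 180 falls, 50 to 105 genes called in each background, 19 to 51 with an interaction (19 without SNU449-ctrl replicate 2) and 10 to 32 list members (10 without SNU449-ctrl replicate 2, 11 without SNU449-Rego replicate 3), and the spike-in difference ranged from −0.13 to −0.04. The count called in each background was 50 without SNU449-Axl-KO-Rego replicate 2, 53 without replicate 1 of that group and 59 without SNU449-Axl-KO-ctrl replicate 2. Upper-quartile scaling, pseudocounts, the count filter, no trend and the other table gave between 408 and 496 shared genes. Of 944 alternative values of the named genes, 805 kept direction and call, 139 lost the call and 0 reversed. KRT81 (adjusted p = 0.063) and GADD45A (0.052) lost it under the filter at a count of 20. Of 12 omissions, CCNB1, IGFBP1 and TAPBP lost it in 10, BUB1, BUB1B and FAS in 9, BNIP3, GADD45A, KRT81, OASL and PSPH in 8, KRT7 and P4HA1 in 7, IGFBP5 and IGFBP7 in 6, ID2 and ZEB2 in 4 and LDHA in 1. The causes were not tested. Unknown depth allows no counting interval.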

Other observations

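Further genes called in each background, chosen after their values were seen, encode signaling proteins. STAT3, a transcription factor of cytokine signaling, rose by 1.13 (SE 0.18, adjusted p = 0.0027), with values between 8.77 and 9.79 in the control and between 10.04 and 10.58 in the resistant libraries. The insulin receptor adaptors IRS2 and GRB10 rose by 1.02 (SE 0.14, adjusted p = 0.0015) and 1.36 (SE 0.21, adjusted p = 0.0031). CXCR4, the receptor of CXCL12, rose by 2.01 in SNU449 and 0.86 in SNU449-Axl-KO (adjusted p = 0.027 for the difference) at a mean normalized count of 25.7. RIPK4, a kinase of epidermal differentiation, rose by 1.48 (SE 0.17, adjusted p = 0.00032), although its control level differed between the genotypes, with 6.69 to 7.36 in SNU449-ctrl and 5.39 to 5.70 in SNU449-Axl-KO-ctrl.

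Among the falls, NNMT, which methylates nicotinamide, went from between 9.54 and 10.56 to between 8.64 and 9.56, and fell by 1.26 (SE 0.18, adjusted p = 0.0015). KCNMA1, a calcium-activated potassium channel, fell by 1.21 (SE 0.22, adjusted p = 0.0072). These 7 genes kept an adjusted p under 0.05 over both backgrounds whichever library was left out.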
